A study of Mus musculus with 12 samples.

Results

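The genes described here are 7 genes of MHC class II antigen presentation in mouse bone marrow stem cells, H2-Eb1, H2-Aa, H2-Ab1, Cd74, H2-DMa, Ctss and Ciita, out of 18193 genes that have a probe set of their own on the arrays. They were chosen by name with the signals of these same samples in view, so their values in these samples are given as a description and carry no p-value. Every probe set annotated to 1 of the 7 symbols and to no other gene was taken, which gave 15 probe sets, 11 on the chip design MOE430A and 4 on MOE430B. Of these, 8 and 3 passed the filter on low values and entered the fits across all probe sets.

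Bone marrow stem cells were sorted by flow cytometry for surface CD49, a designation that covers several integrin alpha subunits, into 3 negative (CD49-) and 3 positive (CD49+) samples. The labels do not name the subunit stained. Each sample was lysed at 0 h, held about 30 cells at an estimated purity of 97.03%, was amplified by PCR into cDNA, and was hybridised to both Affymetrix designs. The titles carry the prefix MZ1484 for CD49- replicate 1 and CD49+ replicate 1, and MZ1468 for replicates 2 and 3 of both groups. No strain, age, sex or treatment is given for either group, and separate animals or separate sorts are not stated, so the spread between them may be technical. The prefixes were scanned on different days. Eif2s3y, a Y-linked gene, gave 15.4 and 16.2 under the prefix MZ1484 but 3349 to 7413 under MZ1468, so prefix, scan day and the source of the cells cannot be told apart.

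MHC class II molecules carry peptides from endocytosed protein to the cell surface, where CD4 T cells read them. An alpha and a beta chain pair in the endoplasmic reticulum with the invariant chain, cathepsins trim that chain in endosomes, and the DM heterodimer exchanges its last fragment for a peptide. The genes of the chains, the invariant chain and DM share a promoter module of X and Y boxes bound by RFX, CREB and NF-Y, on which the coactivator CIITA assembles. The pathway is best known from B cells, dendritic cells and macrophages, and class II has also been described on haematopoietic stem and progenitor cells.

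On GRCm38.p6, H2-DMa (chr17:34119693-34139101), H2-Ab1 (chr17:34263227-34269418), H2-Aa (chr17:34282744-34287823) and H2-Eb1 (chr17:34305867-34316674) lie on chromosome 17. RefSeq promoter windows of that build, from 250 bases before to 50 after a gene's start, were matched for H2-Eb1, H2-Aa, H2-DMa and Ctss. They were searched on both strands for GNAAC followed after 20 to 30 bases by GATTGG, letters chosen after the class II sequences had been read; GATTGG holds the CCAAT letters of the Y box on the opposite strand. The spaced letters are in 214 of 32851 windows (0.651%), and GATTGG by itself is in 16.1%. H2-Eb1 and H2-Aa have them, as do H2-Oa and H2-Ob, the chains of the DM inhibitor DO, the DM beta chain gene H2-DMb1 and H2-Eb2. The letters were not found in either H2-DMa window or in those of Ctss and H2-DMb2. The stretches of H2-Eb1 (chr17:34305761-34305827, plus strand), H2-Aa (chr17:34287852-34287919, minus strand), H2-Oa (chr17:34092288-34092355, plus strand) and H2-Ob (chr17:34238803-34238867, plus strand) are shown 5′ to 3′ with the searched letters in capitals. Whether these letters are working X and Y boxes was not tested.
H2-Eb1: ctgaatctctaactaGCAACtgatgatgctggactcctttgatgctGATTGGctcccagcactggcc
H2-Aa: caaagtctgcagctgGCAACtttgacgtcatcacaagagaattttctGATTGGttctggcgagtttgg
H2-Oa: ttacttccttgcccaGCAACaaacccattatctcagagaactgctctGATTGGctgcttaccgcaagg
H2-Ob: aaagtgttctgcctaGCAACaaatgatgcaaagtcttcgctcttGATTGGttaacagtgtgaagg
The letters between the capitals number 26 in H2-Eb1, 27 in H2-Aa, 27 in H2-Oa and 24 in H2-Ob.

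Values are linear MAS5 signals as deposited, and differences are of log2(signal + pseudocount), which understates the change of dim genes. The background bound of an array is its highest signal among probe sets for Bacillus transcripts, which mouse cells lack. It was 78.0 to 149 on MOE430A and 844 to 1466 on MOE430B. Where every sample of a group is at or under its bound, the data give an upper limit for that group. A fold against it is then written as "at least": the brighter group's mean log2 signal is set against the dimmer group's mean after each value under the bound is raised to it. In probe set names, the suffixes _x_at and _s_at mark probes that can also match other transcripts, so that values from them can hold signal of related genes. Levels are compared within a probe set. The exceptions are the choice of a gene's brightest probe set and the sums of marker signals, which add different probe sets.

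H2-Eb1, which encodes the beta chain of the E molecule, had a signal of 19314 in CD49- replicate 1 and of 9466 in CD49+ replicate 1, the MZ1484 samples. In the MZ1468 samples its probe set 1417025_at gave 10.2 and 55.5 in CD49- replicates 2 and 3 and 12.2 and 14.3 in CD49+ replicates 2 and 3. All 4 of these lay under the background bound, whereas both MZ1484 samples lay far above it, and the prefixes did not overlap. The signal was at least 158-fold higher with the prefix MZ1484, and this lower limit is what the data give. The fitted log2 difference of 8.17 ± 0.66 (SE, 2 against 4 samples), 8.45 within CD49- and 7.88 within CD49+, depends on readings under the bound.

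H2-Aa, which encodes the alpha chain of the A molecule, was read by 4 probe sets, all higher in both MZ1484 samples than in every MZ1468 sample. Its brightest on MOE430B, 1438858_x_at, had signals of 43151 in the CD49- and 54970 in the CD49+ sample of MZ1484, against 1048 and 529 in the CD49- and 2667 and 1990 in the CD49+ samples of MZ1468. The fitted log2 difference was 5.05 ± 0.69, and it rests in part on values under the bound. This probe set was above the bound in both CD49+ samples of MZ1468 and in neither CD49- sample. The other probe set on MOE430B, 1443783_x_at, had signals of 5752 and 9184 in the CD49- and CD49+ samples of MZ1484 and of 206, 78.7, 50.6 and 27.0 in the MZ1468 samples, all 4 under the bound. Its signal was at least 6.20-fold higher in MZ1484, with a log2 difference of 5.07 ± 0.46.

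On MOE430A, H2-Aa 1435290_x_at had signals of 2843 and 2694 in the CD49- and CD49+ samples of MZ1484. In MZ1468 it gave 206 and 102 in CD49- and 359 and 33.2 in CD49+, and CD49+ replicate 3 alone was under its bound. The log2 difference between prefixes was 4.10 ± 0.94. The ratio of geometric mean signals, taken without the pseudocount, was 22.0-fold and includes the reading under the bound. The dim probe set 1452431_s_at, which did not pass the filter, gave 107 and 302 in MZ1484 and 9.74 to 67.4 in MZ1468, at least 2.10-fold higher in MZ1484. The 4 probe sets thus had the same order of prefixes and prefix differences of 2.06 to 5.07.

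H2-Ab1, which encodes the beta chain of the A molecule, had 3 probe sets that disagreed with each other. The brightest, 1450648_s_at, was above the bound in all 6 samples, with signals of 13155 and 20117 in the CD49- and CD49+ samples of MZ1484. In MZ1468 it gave 4446 and 2621 in CD49- and 2883 and 4255 in CD49+. The prefixes did not overlap, and the difference was 2.23 ± 0.47, or 4.70-fold. This probe set is of the _s_at kind, which can also read related transcripts, and it is the only H2-Ab1 probe set above the bound in all 6 samples.

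Neither of the other H2-Ab1 probe sets separated the prefixes, and both were under the bound in CD49+ replicate 1 and in replicate 2 of each CD49 group. Probe set 1425477_x_at gave 241 and 106 in the CD49- and CD49+ samples of MZ1484 against 29.0, 279, 35 and 235 in MZ1468, a difference of 0.55 ± 0.93 that turned to -0.05 without CD49- replicate 2. Probe set 1451721_a_at gave 199 and 22.0 in MZ1484 against 72.4, 1162, 21.0 and 791 in MZ1468, a difference of -1.31 ± 1.45. In both, replicate 3 of either CD49 group was the high sample of MZ1468 and replicate 2 the low one.

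Cd74, the invariant chain that escorts class II chains out of the endoplasmic reticulum, had signals of 3815 in the CD49- and 3435 in the CD49+ sample of MZ1484. In MZ1468 they were 220 and 150 in CD49- and 120 and 129 in CD49+. All 6 values were above the bound, those of MZ1468 by a small margin, and the prefixes did not overlap. The log2 difference between prefixes was 4.36 ± 0.68, with 4.20 within CD49- and 4.52 within CD49+. The ratio of geometric mean signals, taken without the pseudocount, was 24.1-fold.

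**Figure D1:**
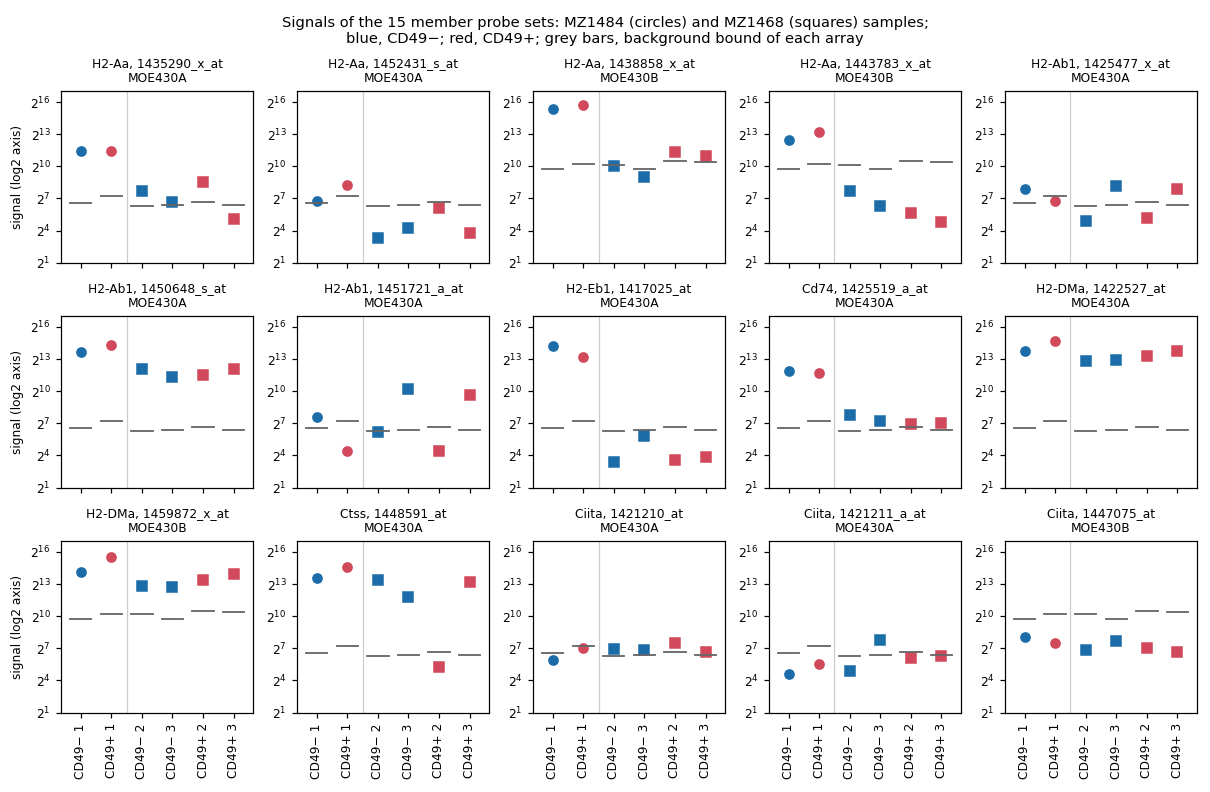
Signal (log2 axis) of each of the 15 probe sets in the 6 samples, with MZ1484 samples as circles left of the grey line and MZ1468 samples as squares, CD49- in blue, CD49+ in red, and each array's background bound as a grey bar. H2-Eb1 stands far above the bound in the MZ1484 samples and under it in the 4 MZ1468 samples, H2-DMa is above it in all 6, and the 3 Ciita probe sets stay near or under it.

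H2-DMa, the alpha chain of DM, was bright in all 6 samples on both designs. On MOE430A, 1422527_at had signals of 13856 and 25918 in the CD49- and CD49+ samples of MZ1484, 7051 and 7858 in CD49- and 10190 and 13665 in CD49+ samples of MZ1468. On MOE430B, 1459872_x_at had 17787 and 47890 in MZ1484, and 7124, 6890, 10495 and 15542 in the same order in MZ1468. In each design the MZ1484 samples were above all MZ1468 samples, with log2 differences of 1.01 ± 0.26 and 1.61 ± 0.61, small beside those of H2-Eb1, H2-Aa and Cd74.

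Within both prefixes, every CD49+ sample had a higher H2-DMa signal than every CD49- sample, on both designs. The CD49+ minus CD49- difference was 0.90 within MZ1484 and 0.66 within MZ1468 on MOE430A, and 1.42 and 0.85 on MOE430B. Over all 6 samples it was 0.74 ± 0.45 on MOE430A and 1.04 ± 0.91 on MOE430B, and the CD49 groups overlapped because CD49- replicate 1 lay above the CD49+ samples of MZ1468. Without CD49+ replicate 1 the differences were 0.36 and 0.41, and without CD49+ replicate 2 they were 1.04 and 1.5. The only other probe set with this order within both prefixes was H2-Aa 1438858_x_at, so that 1 of 11 probe sets on MOE430A and 2 of 4 on MOE430B showed it. Among all probe sets the same order was found in 7.68% on MOE430A and 10.1% on MOE430B.

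Ctss, cathepsin S, the protease that cuts the invariant chain in B cells and dendritic cells (chr3:95526786-95556405 on GRCm38.p6), had signals of 11954 and 24705 in the CD49- and CD49+ samples of MZ1484. In MZ1468 it gave 10460 and 3599 in CD49- and 37.7 and 9065 in CD49+. CD49+ replicate 2, at 37.7 and under its bound, stood apart from the other 5 samples, which were all bright. The difference between prefixes was 2.98 ± 2.03, and it was 1.17 without CD49+ replicate 2, 0.96 without CD49+ replicate 1 and 5.01 without CD49- replicate 1. The CD49+ minus CD49- difference was -1.66 ± 2.07 and turned to 0.96 without CD49+ replicate 2.

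Ciita, the class II transactivator, which lies at chr16:10480014-10531064 on GRCm38.p6, stayed near the background bound on all of its probe sets, none of which passed the filter. Probe set 1421210_at gave 59.7 and 131 in the CD49- and CD49+ samples of MZ1484, both under their bounds, and 124, 112, 175 and 101 in MZ1468, each just above its bound. Probe set 1421211_a_at gave 24.7 and 46.3 in MZ1484 and 29.8, 226, 69.8 and 76.9 in MZ1468, with CD49- replicate 3 alone above its bound. On MOE430B, 1447075_at gave 268 and 181 in MZ1484 and 101 to 210 in MZ1468, all under the bound. Differences between prefixes were -0.38, -0.83 and 0.39, and the prefixes overlapped on each, so that on none of the 3 did both samples with high H2-Eb1, H2-Aa and Cd74 signals lie above the rest.

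By prefix, 7 of 11 probe sets on MOE430A and 3 of 4 on MOE430B had both MZ1484 samples above all 4 MZ1468 samples, and 0 had the opposite order. Over all probe sets that order was found in 14.5% on MOE430A and 10.1% on MOE430B. In the limma fit with the CD49 group as covariate, 3 of 8 tested probe sets on MOE430A (H2-Eb1, Cd74 and H2-Ab1 1450648_s_at) and 1 of 3 on MOE430B (H2-Aa 1443783_x_at) were called higher in MZ1484. Over all probe sets tested, 1.16% on MOE430A and 0.0977% on MOE430B were called higher. The filter used the mean over all 6 samples. H2-Eb1 averaged 5.56 and H2-Aa 1443783_x_at 7.79 in log2 in MZ1468, so both passed it only through their MZ1484 samples. As the genes were chosen with these values in view, the counts are a description. On MOE430A, 0 of the 3 calls were left without CD49- replicate 2, CD49- replicate 3 or CD49+ replicate 3, and 1 was left without CD49- replicate 1 or CD49+ replicate 1. The call on MOE430B was lost without any one of the 6 samples. The median prefix difference was 2.06 over the tested and untested probe sets of MOE430A and 3.33 over those of MOE430B, beside 0.02 and -0.02 over all probe sets with no filter and -0.43 and -0.06 over those tested. It was 1.03 on MOE430A without CD49+ replicate 1 and 1.17 without CD49+ replicate 2.

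The MZ1484 arrays of MOE430A also stood apart as a whole. They had 46.9% and 39.5% of probe sets above the bound against 49.7% to 61.1% in MZ1468, and a 75th percentile signal of 498 and 384 against 918 to 1317. After quantile normalization, which gives all arrays of a design the same distribution, the prefix differences were 8.06 for H2-Eb1, 4.62 for Cd74, 4.36 for H2-Aa 1435290_x_at and 2.15 for H2-Ab1 1450648_s_at.

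By CD49, 0 of the tested probe sets of these genes were called on either design with limma, as were 0% of all those tested on MOE430A and 0% on MOE430B, where 272 and 414 had an unadjusted p under 0.05. Differences were -0.65 ± 2.93 for H2-Eb1, -0.36 ± 1.72 for Cd74, 0.23 ± 0.93 for H2-Ab1 1450648_s_at and -0.15 ± 1.73 for H2-Aa 1435290_x_at. These standard errors hold the spread between prefixes, and the CD49 groups overlapped on all 15 probe sets. Within MZ1484 the difference was -1.03 for H2-Eb1 and -0.15 for Cd74, and for Cd74 it was -0.47 within MZ1468, where all H2-Eb1 values were under the bound and show no difference of that gene. The median was -0.15 over the probe sets of MOE430A and 0.42 over those of MOE430B, beside 0.01 and 0.05 over all probe sets with no filter. The interaction term, the CD49 difference in MZ1484 less that in MZ1468, was called for 0 of the tested probe sets of these genes, beside 2.17% of all tested on MOE430A and 0% on MOE430B. Each CD49 group has 1 sample under MZ1484, so that the spread in this term comes from the MZ1468 samples.

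**Figure D2:**
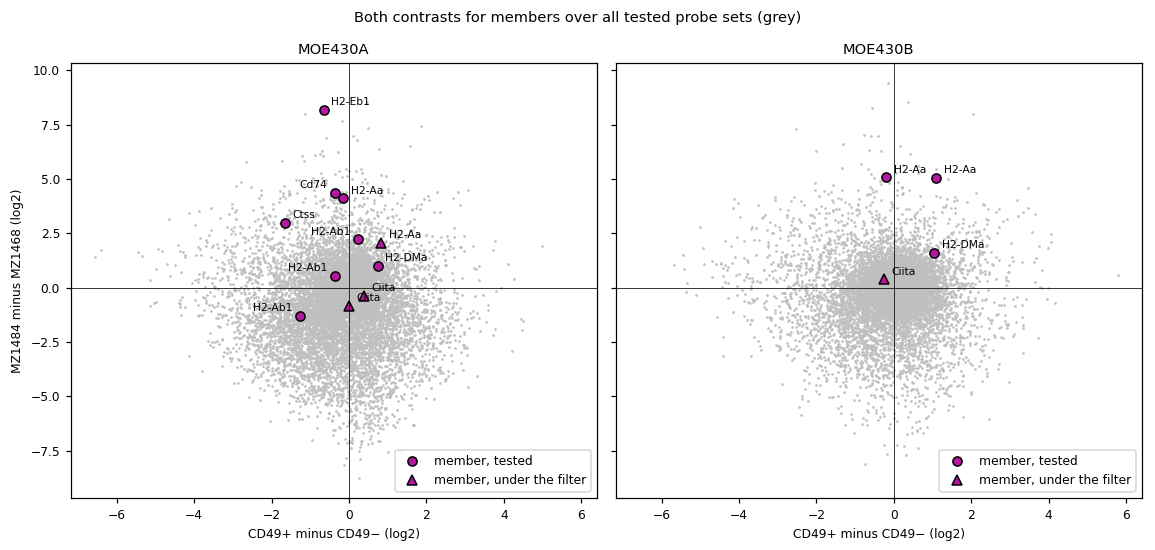
Log2 difference between prefixes (vertical, MZ1484 minus MZ1468) against that between CD49 groups (horizontal, CD49+ minus CD49-) for each chip design, with the class II probe sets labelled over all tested probe sets in grey. H2-Eb1 lies at 8.17 on the vertical axis and -0.65 on the horizontal, and the class II probe sets spread along the vertical more than along the horizontal axis.

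The other genes of class II peptide loading, a list of 18 symbols of which 14 were measured and 11 tested, were split between prefixes, with 6 higher and 5 lower in MZ1484. Their median was 0.45, beside -0.43 over all probe sets tested on MOE430A and -0.06 on MOE430B, and limma called 0 higher and 2 lower. Of all 11313 probe sets tested on MOE430A, 131 were called higher and 708 lower. Of the 11256 on MOE430B, 11 were called higher and 34 lower. Ctsd, the aspartic protease cathepsin D, fell from 6923, 5185, 7885 and 8107 in MZ1468 to 79.7 and 762 in MZ1484 (-4.58 ± 0.80, limma adjusted p = 0.0308). The 79.7 of CD49- replicate 1 was under its bound of 96.0, so the size of this difference rests in part on it. Ifi30, the thiol reductase that unfolds antigens, had 572, 2541, 1844 and 2392 in MZ1468 and 58.6 and 53.0 in MZ1484, both under the bound, which made it at least 13.3-fold higher in MZ1468 (limma adjusted p = 0.0424). Ifi30 averaged 6.37 in log2 in MZ1484 and passed the filter only through its MZ1468 samples, so its p-value is a description. Both separated the prefixes in the direction opposite to H2-Eb1 and Cd74. The counts of this list rest on the brightest probe set of each gene, and not every cathepsin went the way of Ctsd. Ctsb, cathepsin B, was higher in MZ1484 by 0.72 without overlap on its brightest probe set. It has 4 others, among which differences of 2.43 and 5.21 were found, and the rest are not given here. The size of the Ctsb difference is thus not settled by the value counted. The Ctsd call was lost without CD49- replicate 2, CD49- replicate 3 or CD49+ replicate 3 (-4.32, -4.49 and -4.75), and the Ifi30 call without any one of the 6 samples (-4.81 to -3.86).

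The 5 measured genes of this list that lie in the class II region went different ways and none passed the test; they are given as a set after their values were seen. H2-Eb2, a further E beta chain gene, had signals of 543 and 125 in the CD49- and CD49+ samples of MZ1484 and of 1317, 1108, 1197 and 700 in MZ1468. It was lower in MZ1484 without overlap (-1.49 ± 0.43, limma adjusted p = 0.198). Both MZ1484 values and those of the CD49+ samples of MZ1468 were under the bound, and the signal was at least 1.04-fold higher in MZ1468. The size of a difference against the direction of H2-Eb1 thus rests on readings under the bound. H2-Oa had 3121 and 6114 in MZ1484 against 1136 to 5818 in MZ1468 (1.03 ± 0.84, limma adjusted p = 0.465), and H2-Ob 3617 and 6634 against 643 to 3645 (1.58 ± 0.80, limma adjusted p = 0.431), both with overlap. H2-DMb2, a DM beta chain, had 192 and 246 against 86.8 to 175, without overlap (0.67 ± 0.53, limma adjusted p = 0.453). These values are from its brightest probe set, and it has 2 others of its own. A probe set shared by H2-DMb1 and H2-DMb2 was left out because it carries both symbols. It was also higher in MZ1484, by a larger log2 difference, so the level of DM beta is not settled by the values given. H2-Ea, the E alpha chain, had 96.8 and 163 against 46.9 to 176, near the bound, and did not pass the filter. By CD49, 5 of the 11 tested were higher and 6 lower with a median of -0.16, and limma called 0, with 0 under an unadjusted p of 0.05. The smallest p-values belonged to Sppl2a, the intramembrane protease that degrades the last stub of the invariant chain (-2.18 ± 1.13), and Marchf8, a ubiquitin ligase (-1.82 ± 0.99). A further Sppl2a probe set, 1452225_at, gave -0.01.

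Regulators of class II transcription were a list of 19 genes, with 18 measured and 14 tested. Between prefixes 3 were higher and 11 lower in MZ1484, the median was -0.49, close to the -0.43 of all probe sets tested on MOE430A, and limma called 0, with 1 under an unadjusted p of 0.05. Rfxank, a subunit of the RFX complex, gave -2.94 ± 1.05 (limma adjusted p = 0.144) on its brightest probe set, whereas its other probe sets gave 1.62 and 0.65. Without CD49+ replicate 1 the first value was -1.49. Ifngr1, the ligand-binding chain of the interferon gamma receptor, gave 1.27 ± 0.53 (limma adjusted p = 0.194), with signals of 9596 and 8009 in MZ1484 above the 2129 to 4636 of MZ1468. By CD49, 9 were higher and 5 lower with a median of 0.22, and limma called 0, with 0 under an unadjusted p of 0.05. Nfyb, an NF-Y subunit, gave 2.96 ± 1.38 and Rfx5, the DNA-binding subunit of RFX, gave 1.99 ± 1.18. CD49- replicate 1 was the low sample of both, at 65.7 for Nfyb and 70.4 for Rfx5, and a second Nfyb probe set gave 0.23. Without that sample the differences were 1.5 for Nfyb and 1.04 for Rfx5, and in the MZ1468 samples alone 1.46 and 0.58.

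Costimulatory and related surface genes were a list of 10, all measured and 5 tested. Between prefixes 1 of those tested was higher and 4 were lower in MZ1484. Their median was -0.75, beside -0.43 over all probe sets tested on MOE430A. The dim genes that did not pass the filter all had positive differences. Over all 10 measured genes the median was 0.31, beside 0.02 over all probe sets of MOE430A with no filter. The tested gene that was higher was Cd83, a surface protein that stabilises class II and CD86 at the cell surface, with signals of 25047 and 24723 in MZ1484 and of 25, 25.5, 51.6 and 64.5 in MZ1468, all 4 under the bound. Its signal was at least 291-fold higher in MZ1484 (8.55 ± 0.68, limma adjusted p = 0.0212), a pattern that resembled that of H2-Eb1 in having no MZ1468 sample above background. Cd83 averaged 6.06 in log2 in MZ1468 and passed the filter only through its MZ1484 samples, so its p-value is a description. The call was lost without CD49- replicate 2, CD49- replicate 3 or CD49+ replicate 3, where the differences were 8.49, 8.50 and 8.65. By CD49, 3 were higher and 2 lower with a median of 0.42, and limma called 0, with 0 under an unadjusted p of 0.05. Cd1d1, which presents lipids, gave -2.43 ± 1.38 (-0.89 in the MZ1468 samples alone), and Cd52, a leukocyte surface peptide, gave 1.46 ± 2.02, which turned to -0.30 without CD49- replicate 1.

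**Figure D3:**
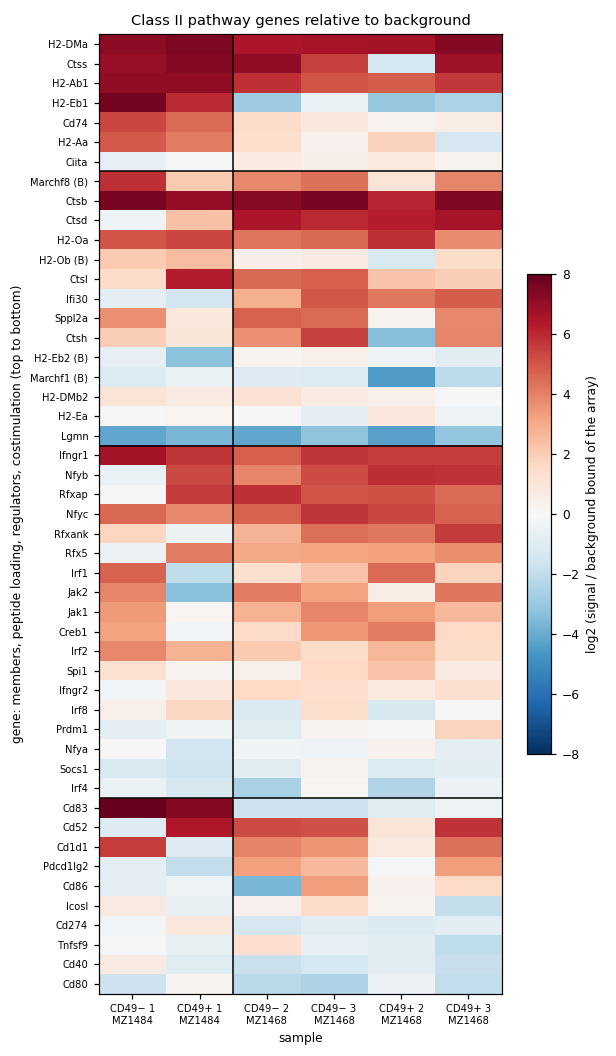
Log2 ratio of each gene's signal to the array's background bound (colour, red above and blue under the bound) in the 6 samples, for the class II genes (top block), peptide loading, regulators and costimulation, with the brightest probe set per gene on MOE430A, or on MOE430B where marked (B). H2-Eb1 and Cd83 are red in the MZ1484 samples and blue in the MZ1468 samples, and Ifi30 shows the opposite colours.

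The mean profile of H2-Aa, H2-Ab1, H2-Eb1 and Cd74, centred per probe set, was 3.22 and 3.06 in the CD49- and CD49+ samples of MZ1484 and -1.32, -1.55, -1.46 and -1.95 in MZ1468. Likeness to it was measured as the mean absolute difference of centred log2 values over the 6 samples, with a median of 2.33 over the 11313 probe sets. The profile was made from the brightest MOE430A probe set of each gene, for H2-Ab1 1450648_s_at, and the other H2-Ab1 probe sets do not follow it. The genes that made the profile lay at 0.248 (Cd74), 0.604 (H2-Aa), 1.11 (H2-Ab1) and 1.53 (H2-Eb1), so that the mean is not the pattern of each of them. The closest other genes were Cbarp at 0.316, Plk2 at 0.372, Tnfaip6 at 0.381, Etfbkmt at 0.495 and Nck1 at 0.506. These are closer to the mean than H2-Aa, H2-Ab1 and H2-Eb1 are. Tnfaip6, for example, had signals of 1318 and 2230 in MZ1484 and of 10.8 to 42.6 in MZ1468.

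Markers of cells that carry class II were read on MOE430A by a list for each type, and their summed signals are given with the genes that dominate them. Of 10 B cell markers, 3 and 6 were above the bound under MZ1484 and 4 to 6 under MZ1468, their sum was 1374 and 2807 against 2518 to 9147, and Ms4a1 and Pax5 were at or under the bound in all 6. Cd79b was the largest part of that sum, at 743 and 1558 against 1343 to 8262. Of 9 dendritic cell markers, 2 to 3 were above the bound in each sample, and Itgax, Zbtb46, Batf3, Cd209a and Ccr7 were at or under it in all 6. Their sum was 3320 and 5042 against 1060 to 1568, and it was carried by Fscn1 (2320) in CD49- replicate 1 and by Flt3 (4439), which early progenitors also express, in CD49+ replicate 1.

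Of 12 monocyte and macrophage markers, 4 and 5 were above the bound in MZ1484 and 4 to 7 in MZ1468, and the sum was 20463 and 45989 against 4348 to 16352. Lyz2 made up most of that sum, at 19728 and 31875 against 2750 to 9975, and Cd14, at 259 and 864, was above the bound in the MZ1484 samples alone. Other markers of the list went differently. Cd68 gave 110 and 265 in MZ1484 against 2729, 4153, 29.1 and 175 in MZ1468, and Csf1r gave 7.73 and 12158 against 516, 1287, 8.46 and 1025. Of 15 haematopoietic stem cell markers, 11 to 14 were above the bound in each sample, and their sum was 105702 and 141835 against 44308 to 60224. Large parts of it were Pdzk1ip1 (25624 and 25069 against 757 to 6116), Lmo2 (25694 and 28608 against 17092 to 21178) and Hlf (19989 and 28032 against 4097 to 11780). Other markers of this list went differently, such as Cd34 (351 and 21734 against 4280 to 10646) and Esam (1368 and 1033 against 115 to 3565).

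The remaining lists were also summed, and each sum rests on few probe sets. Granulocyte markers gave 16783 and 7858 in MZ1484 against 4455 to 6652, mostly Prtn3. T cell markers gave 2721 and 2501 against 494 to 2283, with Lat at 2149 and 1934 in MZ1484. Stromal and endothelial markers gave 2847 and 830 against 364 to 635, with Cxcl12 at 1858 in CD49- replicate 1. Erythroid markers gave 6773 and 243 against 6403 to 7852, a sum that followed Tfrc, at 6688 and 38.0 against 6118 to 7613. The part of any of these in the class II differences was not tested, and more cells of a type cannot be told apart from more RNA per cell.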

How the data were processed

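RNA of 6 cell samples was measured on 2 chip designs, giving 12 arrays. The values are linear intensities, 1 signal per probe set, which the authors computed with MAS5 (per the submitters' processing notes) and deposited; its version is not given in the sources used here. All deposited signals have the same 2% trimmed mean on every array (1500.6 to 1501.2) and were used without further scaling. Precision is limited by the number of arrays, which carry no read depth. Replicate numbers follow the order of the labels and pair nothing.

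Symbols came from the platform annotation, updated to RefSeq on GRCm38.p6. On MOE430A 20380 probe sets had 1 symbol, 691 several and 1555 none, and on MOE430B 14661, 245 and 7605. Signals plus a pseudocount, the 25th percentile of the design (27.0 on MOE430A, 139.8 on MOE430B), were taken to log2. The 64 control probe sets of each design were left out. Probe sets with a mean at or above the design's median (11313 and 11256) were fitted with limma 3.58.1 in R 4.3.3, with a mean-variance trend and Benjamini-Hochberg adjustment over the design at 0.05. The CD49 fit had no covariate, the prefix fit had the CD49 group, and prefix and scan day are the same split. The fit was tested on simulated data. Over all tested probe sets, 131 were higher and 708 lower in MZ1484 on MOE430A, and 11 and 34 on MOE430B.

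The class II genes, the other lists and the tests were chosen with earlier results of these data known. All probe sets of the 7 genes are named. A list gene is represented by its brightest probe set, MOE430A preferred, and in each list and contrast the called genes are named, or otherwise the 2 with the smallest p. The 5 genes most like the class II profile are named as well. Alternatives changed the pseudocount, filter, scaling, variance trend, covariate and block, and left out each sample.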

Additional observations from a re-analysis of the deposited data

Results flagged for a closer look

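Among the 4 MZ1468 samples, the H2-Eb1 signal of CD49- replicate 3 (55.5) lay apart from the other three (10.2 to 14.3), with a gap of 0.868 of the whole range on the log2 scale with the pseudocount, which is past Dixon's 95% critical value for 4 samples. Without the pseudocount, a choice examined after seeing the data, the gap was 0.80 and not past it. All 4 values were under the background bound of their arrays. The 15 probe sets were each examined in this way and 1 stood out, where chance gives about 1 group in 20.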

How the results depend on the processing

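The prefix differences kept their sign in all 15 settings on 14 of the 15 probe sets of the class II genes, H2-Ab1 1425477_x_at (-0.05 to 1.18) being the exception. The CD49 differences of H2-DMa were positive in 16 of 16 settings (0.36 to 1.04 and 0.41 to 1.5), and those of H2-Eb1 ranged from -3.28 to 2.17. CD49 calls were 0 in every setting on both designs. No paired analysis was possible because the CD49 groups share no preparation, and the labels do not say which CD49- sample goes with which CD49+ sample. Prefix as a block left the CD49 calls at 0.

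Prefix calls on MOE430A numbered 839, and were 559 with the pseudocount at the median, 319 with no filter and 0 to 1298 with a sample left out. Those among the class II probe sets there, 3, were 1 with no filter, 1 with the brightest 25%, and 0 to 3 with a sample left out. On MOE430B the 45 calls became 95 with a pseudocount of 1, 12 with it at the median, 149 with the brightest 25%, 18 with median centring (9 higher and 9 lower, against 11 and 34), 176 without a variance trend, 148 without the CD49 term and 0 to 28 with a sample left out. The 1 class II call there became 0 with a pseudocount of 1, 2 without a variance trend, 2 without the CD49 term and 0 without any sample. With the pseudocount at the median, the median prefix difference of the class II probe sets was 1.17 (MOE430A, from 2.06) and 2.80 (MOE430B, from 3.33), and with a sample left out 1.03 to 2.40 and 2.87 to 3.40. Cd52 by CD49 turned from 1.46 to -1.52 in MZ1468 samples alone and ranged from -0.30 to 3.14 with a sample left out. Median centring moved all prefix differences on MOE430A by 0.26 and CD49 differences by 0.12. Where not stated, the cause was not tested. Signals under the bound limit what can be said of Ciita and of H2-Eb1 in MZ1468.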
